A study of Macaca fascicularis with 23 samples.

Results

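The genes described are ID3, ID4, MSX1 and BMP6 in pluripotent stem cells (PSCs) of the cynomolgus monkey (Cm, Macaca fascicularis). They were chosen by name, with their values across the culture media already known, and all 4 were found among the 8415 genes of the expression table analysed here. Their differences between media are therefore given as a description, without a test. The choice did not compare embryonic stem cell (ESC) with induced pluripotent stem cell (iPSC) lines, and the differences between these were tested. The values of each line were nevertheless known when the genes were chosen, so these tests are not fully independent of the choice. The files gave the gene IDs 102127693 for ID3, 102139121 for ID4, 102125497 for MSX1 and 102143911 for BMP6.

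The study examined Cm PSCs before and after conversion to a naïve-like state. SC3-seq, a method that sequences amplified cDNA at the 3′ end of transcripts, was applied to 3 ESC lines (CMK6, TRSK and CMK9) and 4 iPSC lines, each in 3 media, and to cultured somatic cells of liver and stomach. There was 1 library for each line and medium, or 21 PSC libraries, and 1 library for each somatic culture. Primed cells were kept in bFGF/KSR, a medium with basic fibroblast growth factor and knock-out serum replacement. Naïve-like cells were kept in K5cLD, which holds LIF, doxycycline (Dox) and the chemicals Gö6983, forskolin, kenpaullone, CHIR99021 and SB590885. They carried PiggyBac vectors with Dox-inducible human KLF2 and NANOG and an EOS-GFP/puroR reporter, and a DsRed vector was used with ESC lines but not with iPSC lines. Differentiated cells were the converted lines in K5c, the same medium without LIF and Dox, so they held the vectors but not the inducer. The descriptions of the media name no added BMP ligand or BMP inhibitor. The iPSC lines iPS-L3 and iPS-L6 came from liver and iPS-S6 and iPS-S12 from stomach cells of the same female foetus, reprogrammed with episomal vectors for SOX2, KLF4, OCT3/4, L-MYC, LIN28 and a hairpin against p53. A vector with OCT3/4 and the hairpin persisted in both liver-derived lines and in a stomach-derived line, for which the sources differ in naming iPS-S6 or iPS-S12. The medium, the transgenes and the selection step changed together between primed and naïve-like cells and cannot be told apart.

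Bone morphogenetic proteins (BMPs) are secreted ligands of the TGF-β family. They bind paired type I and type II receptors, which phosphorylate SMAD1, SMAD5 and SMAD9, and these enter the nucleus with SMAD4 and raise transcription of target genes. The ID genes are among the most direct of these targets. ID proteins have a helix-loop-helix region but no DNA-binding region, and they hold basic helix-loop-helix (bHLH) factors in inactive pairs. MSX1 is a homeobox repressor that BMP signals switch on in limb, tooth, neural crest and amnion, and BMP6 is itself a ligand. In mouse ESCs, BMP with LIF sustains self-renewal through ID proteins, while in primed human PSCs added BMP favours trophoblast-like or mesodermal fates.

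Values are RPM, mapped reads scaled to the same library total, and levels are compared on the log2(RPM + 1) scale. On this scale a difference understates the change of a gene with a low value. Depth recovered from the values was 861000 to 7986000 reads for the primed, 902000 to 5619000 for the naïve-like and 941000 to 5491000 for the differentiated medium, with 1704000 reads for liver and 3084000 for stomach. A count of 3 reads corresponded to 0.376 to 3.49 RPM and was taken as the limit of detection. A gene was called expressed above 4 on the log2 scale in at least 1 PSC library, which 2776 genes and the members ID3, ID4 and MSX1 met and BMP6 did not. In a tree of all expressed genes 20 of the 21 PSC libraries grouped with their own medium, and the exception was primed iPS-S12. The pluripotency list (7 of its 12 genes were analysed here) summed to 971 to 2582 RPM for primed, 1776 to 2765 for naïve-like and 1188 to 2290 for differentiated cells, with the lowest primed sum in iPS-S12. It summed to 1.76 RPM in liver and 0.973 RPM in stomach cells. The liver cells had all 5 hepatocyte markers examined at 0, including ALB and AFP, and a sum of 4854 RPM over 2 stromal markers. The label liver thus names the source of the culture and not hepatocytes. Stomach cells had a similar stromal sum of 4516 RPM.

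ID3 was highest in the primed medium in every line. The primed libraries had 386 RPM in CMK6, 433 in TRSK, 949.9 in CMK9, 428 in iPS-L3, 449 in iPS-L6, 346 in iPS-S6 and 272 in iPS-S12, with a median of 428 RPM. The naïve-like libraries had 47.3 to 120.5 RPM with a median of 82.9, lowest in iPS-S12 and highest in iPS-L3. The differentiated libraries had 82.8 to 198 RPM with a median of 128, lowest in iPS-S6 and highest in CMK6. No naïve-like or differentiated library reached the lowest primed one, while the naïve-like and differentiated ranges overlapped. On the log2(RPM + 1) scale the level was 8.76 ± 0.56 (SD, n = 7) in primed cells, 6.38 ± 0.45 in naïve-like and 6.98 ± 0.39 in differentiated cells.

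**Figure D1:**
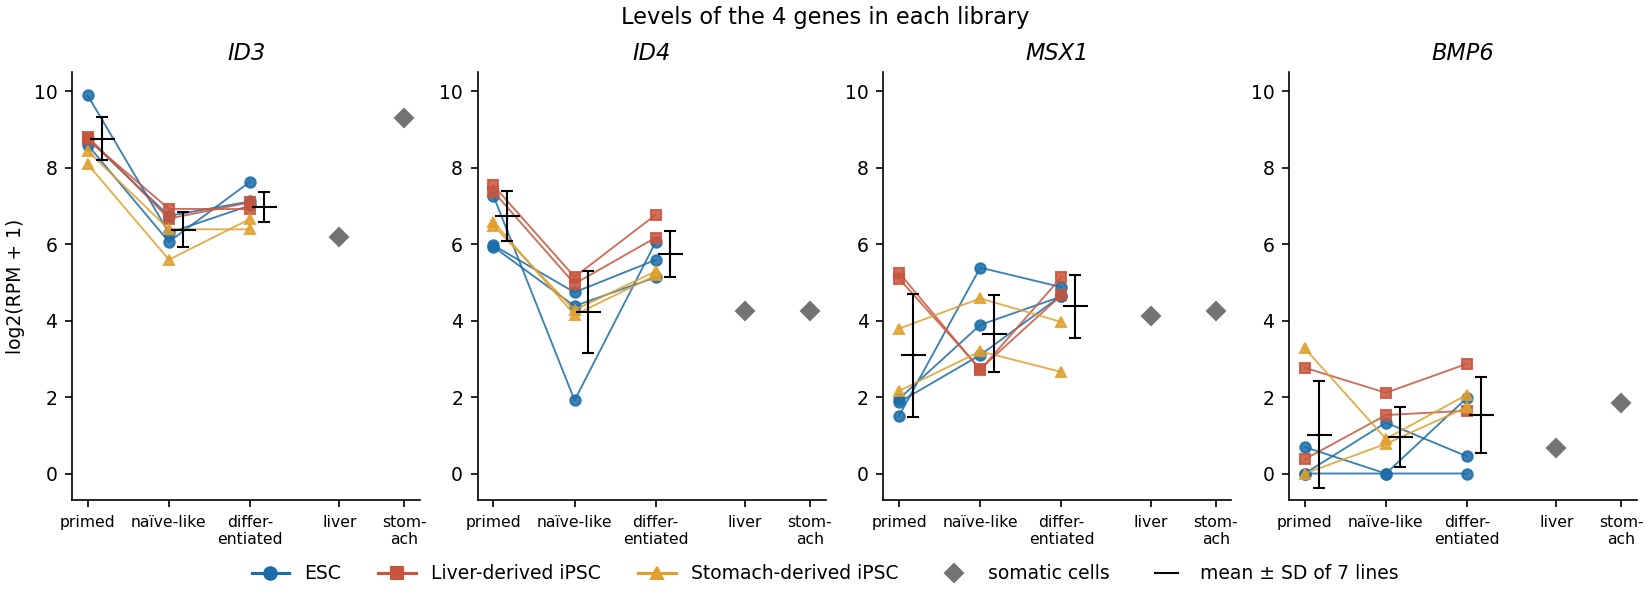
Levels of ID3, ID4, MSX1 and BMP6 as log2(RPM + 1) on the vertical axis in the primed, naïve-like and differentiated media and in liver and stomach cells. Each point is 1 library, coloured lines join the libraries of 1 PSC line, and black bars are the mean ± SD of 7 lines: ID3 and ID4 sit highest in primed cells, MSX1 lines cross, and BMP6 stays at or below 3.28.

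Within lines, ID3 was lower in naïve-like than in primed cells by a mean log2 difference of -2.38 ± 0.60 (SD over 7 lines), or 5.20-fold. The difference was negative in 7 of 7 lines and ran from -3.59 in CMK9 to -1.82 in iPS-L3. Leaving out each line in turn gave means from -2.47 to -2.18. Without iPS-S12, whose primed library stood apart in the tree, the mean was -2.36. The median of the line differences was -2.14, and CMK9, with the highest primed value, also had the largest difference.

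After withdrawal of LIF and Dox, ID3 was close to its naïve-like level in some lines and higher in others. The log2 difference between differentiated and naïve-like cells was 0.59 ± 0.58, being positive in 5 lines and negative in 2. In iPS-L3 the values were 120.5 and 120.1 RPM and in iPS-S6 82.9 and 82.8 RPM, while CMK6 had 65.8 and 198 RPM (1.57 on the log2 scale). The log2 difference between differentiated and primed cells was -1.79 ± 0.59 (3.45-fold lower), and it was negative in 7 of 7 lines. Expressed as the share of the primed to naïve-like difference regained on the log2 scale, ID3 had a median of 19.9%, with -0.257% in iPS-L3 and -0.101% in iPS-S6 at the low end and 62.1% in CMK6 at the high end.

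ID4, a family member with known roles in neural progenitors, was also highest in the primed medium. The primed libraries had 153 RPM in CMK6, 61.7 in TRSK, 60.1 in CMK9, 165 in iPS-L3, 185 in iPS-L6, 88.6 in iPS-S6 and 95.2 in iPS-S12. The naïve-like libraries had 2.77 RPM in CMK6, 25.8 in TRSK, 19.9 in CMK9, 30.2 in iPS-L3, 34.4 in iPS-L6, 18.4 in iPS-S6 and 16.7 in iPS-S12. The value in naïve-like CMK6 rested on 8 reads (95% Poisson interval 1.20 to 5.46 RPM) and lay apart from the other 6. The differentiated libraries had 34.2 RPM in CMK9, 35.4 in iPS-S12, 38.2 in iPS-S6, 47.2 in TRSK, 65.6 in CMK6, 71.2 in iPS-L3 and 108 in iPS-L6. Primed and naïve-like libraries did not overlap, and differentiated libraries overlapped with both, with iPS-L6 in the naïve-like medium (34.4 RPM) just above CMK9 in the differentiated one.

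The log2 level of ID4 was 6.74 ± 0.66 (SD, n = 7) in primed cells, 4.22 ± 1.08 in naïve-like and 5.74 ± 0.61 in differentiated cells. Within lines the naïve-like level was lower than the primed one by a log2 difference of -2.51 ± 1.34, or 5.70-fold, in 7 of 7 lines. CMK6 had the largest difference (-5.35) and TRSK the smallest (-1.23). Without CMK6 the mean was -2.04, and without iPS-S12 it was -2.52. CMK6 thus enlarged the mean, and the other 6 lines lay on the same side of 0.

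On withdrawal of LIF and Dox, ID4 was higher than in the naïve-like medium in 7 of 7 lines, by 1.52 ± 1.19 on the log2 scale or 1.08 without CMK6. Its difference from the primed level was -0.99 ± 0.36 (1.99-fold lower), and it was negative in 7 of 7 lines. The share of the difference regained had a median of 50.1% and ran from 42.5% in iPS-S12 to 77.4% in CMK6. This share was larger for ID4 than for ID3 in 6 of 7 lines by the values above and in the plot of line differences. iPS-S12 was the exception, at 42.7% for ID3.

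**Figure D2:**
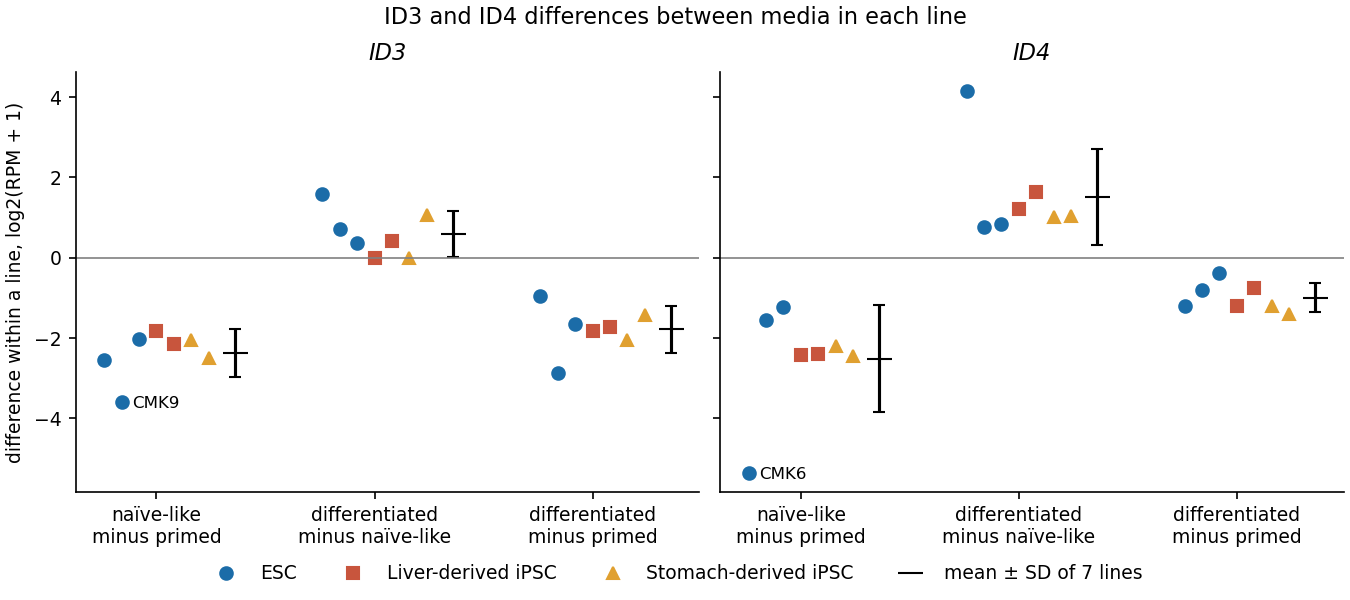
Log2(RPM + 1) differences within each line (vertical axis) between the media for ID3 and ID4, with 1 point for each of 7 lines and black bars for the mean ± SD. All points for naïve-like minus primed lie below 0, CMK9 at -3.59 for ID3 and CMK6 at -5.35 for ID4 lie apart, and all ID4 points for differentiated minus naïve-like lie above 0.

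Of the 4 members, ID3 and ID4 had naïve-like levels below every primed level, and 1.66% of the 2776 expressed genes did so. ID3 alone had differentiated levels below every primed level, against 1.62% of expressed genes. The members were chosen with these contrasts known, so nothing is read from the counts. Over the 21 PSC libraries the Pearson correlation of ID3 with ID4 was 0.73, and within media, after each medium's mean was taken off, it was 0.22. The libraries share lines and media, and the values are a description.

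In these bulk libraries fewer cells with a transcript and less transcript per cell cannot be told apart. The neural progenitor list (3 of 12 genes analysed here, NES, FABP7 and HES5) summed to 275 to 565 RPM for primed, 96.9 to 377 for naïve-like and 322 to 682 for differentiated libraries, and the lowest sum was that of naïve-like CMK6. Of this list HES5 was at 0 in all naïve-like libraries, in 4 of 7 primed and in 6 of 7 differentiated ones. The stromal list (COL1A2 and PDGFRA, 2 of 15) summed to 23.2 to 579.6 RPM for primed, 6.80 to 65.6 for naïve-like and 8.50 to 261 for differentiated libraries, and neither gene was at 0 throughout a medium. The trophoblast or amnion list (5 of 14) summed to a median of 50.9 RPM for primed, 21.2 for naïve-like and 59.9 for differentiated libraries, with ranges of 24.7 to 109, 9.35 to 58.7 and 11.8 to 112 RPM and no gene at 0 throughout a medium. The hepatocyte list (5 of 13) had medians of 47.6, 9.44 and 30.1 RPM in that order. Its ranges were 3.99 to 56.7, 0 to 33.2 and 2.29 to 151 RPM. ALB, APOA2, TF and AHSG were at 0 in all naïve-like libraries. They were also low elsewhere, at most 5.29 RPM in primed (TF) and 1.06 RPM in differentiated libraries (AHSG). AFP alone had medians of 45.3, 9.44 and 29.8 RPM. The mesendoderm list (4 of 13) had medians of 38.2, 9.43 and 4.33 RPM and ranges of 10.8 to 73.2, 6.65 to 13.6 and 0 to 6.43 RPM. The median sums of all these lists were lower in naïve-like than in primed libraries, as were ID3 and ID4. From naïve-like to differentiated libraries the mesendoderm median fell again, while those of the other lists rose. The differentiated median exceeded the primed one for the neural progenitor (419 against 377 RPM), stromal (101 against 75.9 RPM) and trophoblast or amnion lists. ID3 and ID4 stayed below their primed medians. The part of these lists in the ID3 and ID4 differences was not tested.

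MSX1 did not follow the ID genes. Primed libraries had 1.85 RPM in CMK6, 2.65 in TRSK and 2.88 in CMK9, against 33.2 in iPS-L3, 37.2 in iPS-L6, 3.47 in iPS-S6 and 12.8 in iPS-S12. Naïve-like libraries had 40.9 RPM in CMK6, 7.58 in TRSK and 13.8 in CMK9, against 5.66 in iPS-L3, 5.54 in iPS-L6, 8.18 in iPS-S6 and 23.0 in iPS-S12. Differentiated libraries had 28.4 RPM in CMK6, 24.2 in TRSK and 23.8 in CMK9, against 24.4 in iPS-L3, 34.3 in iPS-L6, 5.31 in iPS-S6 and 14.6 in iPS-S12. The order of the lines changed with the medium: the liver-derived iPSC lines were the highest of 7 in the primed and the lowest in the naïve-like medium. Read numbers were small, with 6 to 113 reads for primed, 5 to 129 for naïve-like and 5 to 133 for differentiated libraries.

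**Figure D3:**
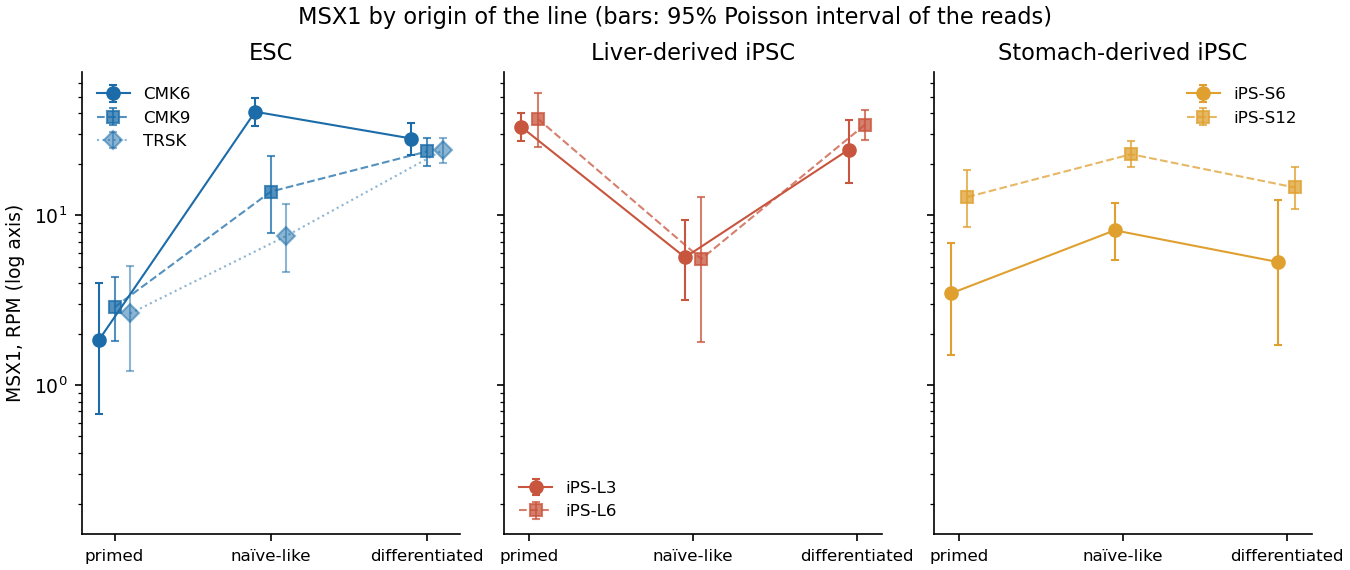
MSX1 in RPM on a log axis in the 3 media, in panels for ESC, liver-derived iPSC and stomach-derived iPSC lines, with 95% Poisson intervals of the reads as bars (counting error only). ESC lines begin at 1.85 to 2.88 RPM in primed cells and reach 23.8 to 28.4 RPM in differentiated cells, while iPS-L3 and iPS-L6 pass from 33.2 and 37.2 RPM through a low point of 5.66 and 5.54 RPM.

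Over the 7 lines MSX1 had a log2 level of 3.09 ± 1.60 (SD) in primed cells, 3.66 ± 1.01 in naïve-like and 4.37 ± 0.84 in differentiated cells, and all ranges overlapped. The naïve-like minus primed difference was 0.57 ± 2.30, with 5 lines higher and 2 lower. The lines that were lower were iPS-L3 (-2.36) and iPS-L6 (-2.55), and the largest positive difference was that of CMK6 (3.88). Differentiated minus naïve-like gave 0.71 ± 1.29, with 4 lines higher and 3 lower. For both contrasts the spread between lines exceeded the mean, and without CMK6 the naïve-like minus primed mean was 0.015.

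BMP6 was at or near the limit of detection. It was at 0 RPM in primed TRSK, CMK9 and iPS-S12, and had 0.294 RPM in primed iPS-L3 and 0.615 RPM in primed CMK6. There were fewer than 3 reads in 5 of 7 primed, 2 of 7 naïve-like and 3 of 7 differentiated libraries. The highest values were 8.69 RPM in primed iPS-S6 (20 reads), 6.32 RPM in differentiated iPS-L6 (19 reads) and 5.81 RPM in primed iPS-L6 (5 reads). In the naïve-like medium BMP6 was at 0 RPM in CMK6 and CMK9, 0.712 in iPS-S12, 0.876 in iPS-S6, 1.52 in TRSK, 1.89 in iPS-L3 and 3.32 in iPS-L6. In the differentiated medium it was at 0 RPM in CMK6, 0.364 in TRSK, 2.13 in iPS-L3, 2.34 in iPS-S12, 2.95 in CMK9 and 3.18 in iPS-S6. No medium stood apart from the others, and at this depth a difference between media was not detectable. The naïve-like minus primed log2 difference was -0.06 ± 1.304 with 1 added to the RPM and 0.37 with 0.1 added, so its direction depended on the pseudocount.

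The somatic cultures differed most in ID3. Liver cells had 71.6 RPM (95% Poisson interval 59.5 to 85.5) and stomach cells 634 RPM (606 to 663), so liver lay inside the naïve-like range and stomach inside the primed one. The stomach value exceeded every primed library except that of CMK9 (949.9 RPM). ID4 was at 18.2 RPM in both, with intervals of 12.4 to 25.8 in liver and 13.7 to 23.6 in stomach, below every primed and differentiated library and inside the naïve-like range. MSX1 was at 16.4 RPM in liver and 18.2 in stomach, inside the range of every medium. BMP6 had 1 read in liver and 8 reads in stomach (2.59 RPM). The cultures also differed in some cell type markers. The gastric epithelium list (4 of 10 genes) summed to 0 RPM in liver and 444 RPM in stomach cells. The trophoblast or amnion list summed to 15.8 and 574 RPM, with TFAP2A, CGA and VTCN1 at 0 in both. The stromal sums were similar, at 4854 and 4516 RPM. The part of these cells in the ID3 values was not tested. With 1 library each, these values have no replicate check, and the intervals cover counting error only.

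The order of the mean log2 levels of ID3 was therefore primed, differentiated and naïve-like, with stomach (9.31) above the primed mean and liver (6.18) below the naïve-like one. The neighbours differentiated and naïve-like overlapped, and so did each somatic value with its neighbouring medium. For ID4 the order was primed, differentiated and naïve-like, with liver (4.26) and stomach (4.26) next to the naïve-like mean. Primed and differentiated libraries overlapped, as did differentiated and naïve-like ones. For MSX1 the order was differentiated, naïve-like and primed, and no neighbours differed beyond the spread of the lines.

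Whether ESC and iPSC lines differed was tested with limma, a linear model fitted to all 2776 expressed genes with adjustment over all of them, on 3 ESC against 4 iPSC lines. At an adjusted p under 0.05, 1.59% of genes were called in primed cells, 0.72% in naïve-like and 0.612% in differentiated cells, and none of ID3, ID4 and MSX1 was among them. MSX1 in primed cells came nearest: ESC minus iPSC was -2.30 on the log2 scale (SE 0.67, limma, adjusted p = 0.0902). All 3 ESC lines (1.85 to 2.88 RPM) lay below all 4 iPSC lines (3.47 to 37.2 RPM), as they did for 6.95% of expressed genes. Without iPS-S6, the iPSC line nearest to the ESC lines, the difference was -2.94 and passed the threshold (limma, adjusted p = 0.0156). Leaving out the nearest line widens the difference by construction, so nothing is read from this. Over all lines left out in turn the difference ran from -2.94 to -1.91 (limma, adjusted p from 0.0156 to 0.248). The vector that persisted in 3 of the 4 iPSC lines and the shared female foetus go with the iPSC group, CMK6 and TRSK were male and CMK9 female, and the DsRed vector could be present in converted ESC lines alone. The part of these factors was not tested.

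In the naïve-like and differentiated media MSX1 was higher in ESC lines by 0.82 (limma, adjusted p = 0.749) and 0.61 (limma, adjusted p = 0.738), with overlapping ranges. ID3 in primed ESC lines was higher by 0.56 (SE 0.31, limma, adjusted p = 0.389). Its values there were 386 to 949.9 RPM in ESC and 272 to 449 RPM in iPSC lines. For ID4 the ESC minus iPSC difference was -0.61 in primed cells, -0.95 in naïve-like and -0.26 in differentiated cells (limma, adjusted p = 0.624, 0.585 and 0.870). Naïve-like ID4 had an ESC range of 2.77 to 25.8 RPM and an iPSC range of 16.7 to 34.4 RPM, so the ranges overlapped.

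The response of the lines to conversion was compared on the differences within lines. For MSX1 the naïve-like minus primed difference averaged 2.35 in ESC and -0.77 in iPSC lines, and they differed by 3.12 (SE 0.98, limma, adjusted p = 0.702). ID3 differed by -0.59 (limma, adjusted p = 0.879) and ID4 by -0.35 (limma, adjusted p = 0.996). On withdrawal of LIF and Dox the ESC minus iPSC difference was 0.52 for ID3, 0.69 for ID4 and -0.20 for MSX1 (limma, adjusted p = 0.763, 0.875 and 0.983). For ID4 the sign of both response differences rested on CMK6, without which they were 0.97 and -0.42. limma called 0 of all 2776 genes in either response, and 160 and 215 of them had an unadjusted p under 0.05.

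Other genes of the BMP pathway were taken from a list of 111 ligands, receptors, SMAD regulators, antagonists and targets. Of these 25 were analysed here, and 13 of the 25, BMP6 among them, stayed below the expression filter. The 9 genes tested beside the members were BMP5, ACVR2B, TGFBR3, CTDSPL, SKIL, SMURF1, FSTL1, NBL1 and TFAP2A. Of the 9, limma called 0 between naïve-like and primed cells (1 had an unadjusted p under 0.05), where 19.2% of all expressed genes were called. This comparison had 307 genes higher and 227 lower, or 218 and 261 with each library centred on its median. It called 3 of the 9 between differentiated and naïve-like cells (14.1% of all genes) and 2 between differentiated and primed cells (13.4%). In a fit that blocked on the line the counts were 1, 3 and 4 of the 9, with FSTL1 added in the first and SKIL and TFAP2A in the last. TFAP2A passed the expression filter through differentiated libraries alone, so nothing is read from its added call. In that fit the calls over all 2776 expressed genes rose from 534, 392 and 372 to 724, 550 and 585. The median log2 difference of the 9 was -0.27, 0.34 and -0.44 in the 3 comparisons, beside 0.06, -0.02 and 0.05 over all expressed genes.

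**Figure D4:**
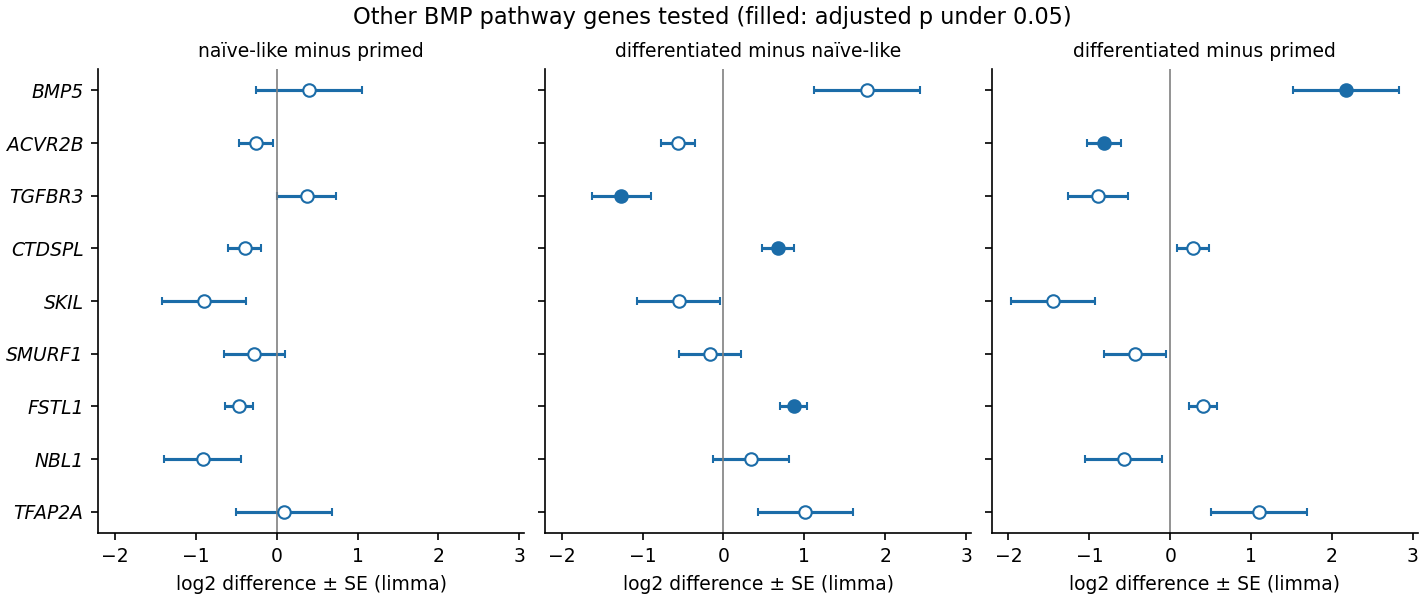
Log2(RPM + 1) difference ± SE from limma (horizontal axis) for the 9 other BMP pathway genes tested, in a panel for each comparison of media (7 lines a medium), with filled points for an adjusted p under 0.05. No point is filled for naïve-like minus primed, TGFBR3, CTDSPL and FSTL1 are filled for differentiated minus naïve-like, and BMP5 and ACVR2B for differentiated minus primed.

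Among ligands, only BMP5 was tested. It had a median of 0.923 RPM for primed, 1.42 for naïve-like and 7.89 for differentiated libraries, and its differentiated minus primed difference was 2.17 on the log2 scale (SE 0.65, limma, adjusted p = 0.0283, higher in 6 of 7 lines). BMP5 exceeded the expression filter in differentiated libraries alone (at most 3.48 on the log2 scale in primed and 3.20 in naïve-like ones), so it was tested only through the medium in which it was high, and the call was lost without the filter (limma, adjusted p = 0.114). It was also lost without CMK6, TRSK or CMK9 (limma, adjusted p = 0.0894, 0.0871 and 0.0952). Those ESC lines had 38.8, 35.7 and 14.6 RPM in the differentiated medium, and the 4 iPSC lines 2.00 to 7.89 RPM. Between ESC and iPSC lines, a comparison made after the values were seen, limma called 0 of the 9 pathway genes in each medium. An unadjusted p under 0.05 was found for 3 of the 9 in the primed, 0 in the naïve-like and 2 in the differentiated medium, beside 15.8%, 10.1% and 12.5% of all expressed genes. The lowest adjusted p was that of SKIL in primed cells (ESC minus iPSC -2.17, limma, adjusted p = 0.0633), and that of the differentiated medium was that of BMP5 (2.71, limma, adjusted p = 0.109). BMP3 and BMP8B did not exceed 0.534 and 1.63 RPM in any PSC library.

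Among receptors, ACVR2B, a type II receptor, fell from primed to differentiated cells by 0.82 on the log2 scale (SE 0.21, limma, adjusted p = 0.00946) in 7 of 7 lines. Its range was 40.4 to 72.9 RPM in primed and 18.05 to 47.3 RPM in differentiated libraries. TGFBR3, the co-receptor betaglycan, fell from naïve-like to differentiated cells by 1.26 (SE 0.37, limma, adjusted p = 0.0227) in 7 of 7 lines. Its naïve-like libraries had 12.3 to 34.9 RPM and its differentiated ones 4.25 to 12.2 RPM, so the groups did not overlap, as for 2.92% of expressed genes in that direction. The TGFBR3 call was lost without the expression filter (limma, adjusted p = 0.0888), which no differentiated library passed for this gene, and without CMK6, iPS-L3, TRSK or iPS-L6 (limma, adjusted p from 0.0508 to 0.0711).

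Among SMAD regulators, CTDSPL, a small phosphatase, rose from naïve-like to differentiated cells by 0.68 (SE 0.20, limma, adjusted p = 0.0267, higher in 6 of 7 lines). It lost the call without the filter (limma, adjusted p = 0.0693) and without CMK6, TRSK, iPS-L6 or CMK9 (limma, adjusted p from 0.0570 to 0.0879). SKIL, a repressor of SMAD complexes that TGF-β signals induce, had a median of 171 RPM for primed, 53.1 for naïve-like and 38.2 for differentiated libraries. Its difference between differentiated and primed cells was -1.45 (SE 0.52, limma, adjusted p = 0.0646). SMURF1, a ubiquitin ligase for SMADs, had a difference of -0.27 in naïve-like and -0.44 in differentiated cells from primed cells and was not called.

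Among extracellular regulators, FSTL1, a secreted glycoprotein of the follistatin family, was called in 1 of the 3 comparisons. It rose from naïve-like to differentiated cells by 0.87 (SE 0.17, limma, adjusted p = 0.00118) in 7 of 7 lines. The naïve-like libraries had 199 to 486 RPM, lowest in CMK6, and the differentiated ones 513 to 949 RPM, without overlap, as for 1.44% of expressed genes in that direction. Naïve-like minus primed was -0.47 (SE 0.17, limma, adjusted p = 0.0559, lower in 6 of 7 lines), and differentiated minus primed was 0.40 (limma, adjusted p = 0.115). NBL1, a BMP antagonist of the DAN family, had a naïve-like minus primed difference of -0.91 (SE 0.47, limma, adjusted p = 0.184). The antagonist CHRD did not exceed 3.49 RPM in a PSC library.

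Among targets, TFAP2A, a transcription factor of surface ectoderm, neural crest and amnion, was the only gene tested besides the members. It had a median of 3.04 RPM for primed, 4.43 for naïve-like and 9.06 for differentiated libraries. Differentiated minus primed was 1.10 (SE 0.59, limma, adjusted p = 0.223, higher in 6 of 7 lines). TFAP2A exceeded the expression filter in differentiated libraries alone (at most 3.53 on the log2 scale in primed and 3.55 in naïve-like ones). It was thus tested only through the medium in which it was high. RUNX2 reached 11.5 RPM and DLX5 0.346 RPM at most in a PSC library. Of the list of homeobox genes related to MSX1, DLX5, DLX6, PAX7 and LHX8 were analysed here and 0 passed the expression filter.

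ID proteins act on bHLH factors, and 15 of a list of 36 were analysed here, of which HES1, BHLHE40 and TWIST1 passed the filter. The factors TCF3, TCF4 and TCF12 of that list were not among the 15. HES1, a repressor best known as a Notch target, fell from primed to naïve-like cells by 1.43 (SE 0.37, limma, adjusted p = 0.00953) in 7 of 7 lines. It rose again on withdrawal by 1.56 (SE 0.37, limma, adjusted p = 0.00599) in 7 of 7 lines. Its medians were 15.3, 7.88 and 19.1 RPM in primed, naïve-like and differentiated libraries. No naïve-like library passed the expression filter for HES1 (at most 3.67 on the log2 scale), so it was tested through the media in which it was high. Both calls held without the filter and in the other settings (limma, adjusted p at most 0.0446 and 0.0315). BHLHE40, a stress-responsive repressor, fell from primed to naïve-like cells by 1.76 (SE 0.61, limma, adjusted p = 0.0443) and was lower in 6 of 7 lines. That call was lost without the expression filter (limma, adjusted p = 0.176) and without any 1 of the lines other than CMK9 (limma, adjusted p from 0.0835 to 0.150). From primed to differentiated cells BHLHE40 fell by 2.28 (SE 0.61, limma, adjusted p = 0.0126), a call lost without the filter (limma, adjusted p = 0.0741) and without iPS-L3, TRSK, iPS-L6 or iPS-S6 (limma, adjusted p from 0.0530 to 0.0637). TWIST1 had a naïve-like minus primed difference of 1.38 (SE 0.65, limma, adjusted p = 0.145).

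The activin and TGF-β arm signals through SMAD2 and SMAD3 and sustains primed pluripotency, and LEFTY1, LEFTY2, TGFB2 and TGFBR2 are given from its list. LEFTY2, a Nodal inhibitor and target, had a naïve-like minus primed difference of -2.11 (SE 0.69, limma, adjusted p = 0.0347, lower in 5 of 7 lines) and was at 0 RPM in 6 of 7 differentiated libraries. LEFTY2 exceeded the expression filter in primed libraries alone (at most 3.50 on the log2 scale in naïve-like ones), so it was tested only through the medium in which it was high, and the call was lost without the filter (limma, adjusted p = 0.135). It was also lost without iPS-L3, iPS-L6, iPS-S6 or iPS-S12 (limma, adjusted p from 0.0649 to 0.142), and the reads of LEFTY2 may be split with the near-identical LEFTY1. The differentiated minus primed difference of LEFTY2 was -4.11 (SE 0.69, limma, adjusted p = 0.000285), lower in 7 of 7 lines. That call held without the filter, in the other settings and with each line left out (limma, adjusted p at most 0.00345). TGFBR2 fell from primed to differentiated cells by 1.97 (SE 0.47, limma, adjusted p = 0.00618) in 7 of 7 lines. No differentiated library passed the expression filter for TGFBR2 (at most 3.86 on the log2 scale). The TGFBR2 call held without the filter and in the other settings (limma, adjusted p at most 0.0356). LEFTY1 and TGFB2 were not called in any comparison.

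CMK9 in the primed medium had the highest ID3 value (949.9 RPM) and the deepest library. In the same library SKIL was at 12.5 RPM, against 87.9 to 359 RPM in the other 6 primed libraries, and BHLHE40 at 1.25 RPM, against 26.5 to 53.5 RPM. Its pluripotency sum of 2582 RPM was the highest of the primed libraries. CMK6 in the naïve-like medium had the lowest ID4 (2.77 RPM) and FSTL1 (199 RPM) and the highest MSX1 (40.9 RPM) of that medium. In this library the neural crest list (3 of 10 genes) summed to 33.9 RPM, of which FOXD3 had 33.6. The other naïve-like libraries had sums of 0.758 to 6.65 RPM. What sets these libraries apart was not tested.

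The genes whose pattern was most like that of each member were ranked by Pearson's r over the 21 PSC libraries among the expressed genes. For ID3 they were SSBP3 (r = 0.87), LRRN3 (0.82), BAIAP2L1 (0.80), LRRN1 (0.80) and TM4SF18 (0.79). Within media the r of these 5 genes with ID3 was 0.33, 0.21, 0.13, 0.46 and 0.29. LRRN3, BAIAP2L1 and TM4SF18 exceeded the expression filter in primed libraries alone, the medium in which ID3 was high. In the other media they reached at most 2.94, 3.99 and 2.44 on the log2 scale, so nothing is read from their r over all libraries. For ID4 they were CAV1 (0.87), SSBP3 (0.85), PTN (0.83), BCHE (0.81) and CYTL1 (0.81), with 0.58, 0.57, 0.67, 0.49 and 0.62 within media. The mean log2 level of CAV1, the caveolin of membrane caveolae, was 9.75 in primed cells, 6.90 in naïve-like and 8.40 in differentiated cells. In naïve-like CMK6, where ID4 was lowest, CAV1 was at 4.99 and PTN at 2.46 on the log2 scale. The libraries share lines and media, and r over all libraries includes the mean differences between media.

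**Figure D5:**
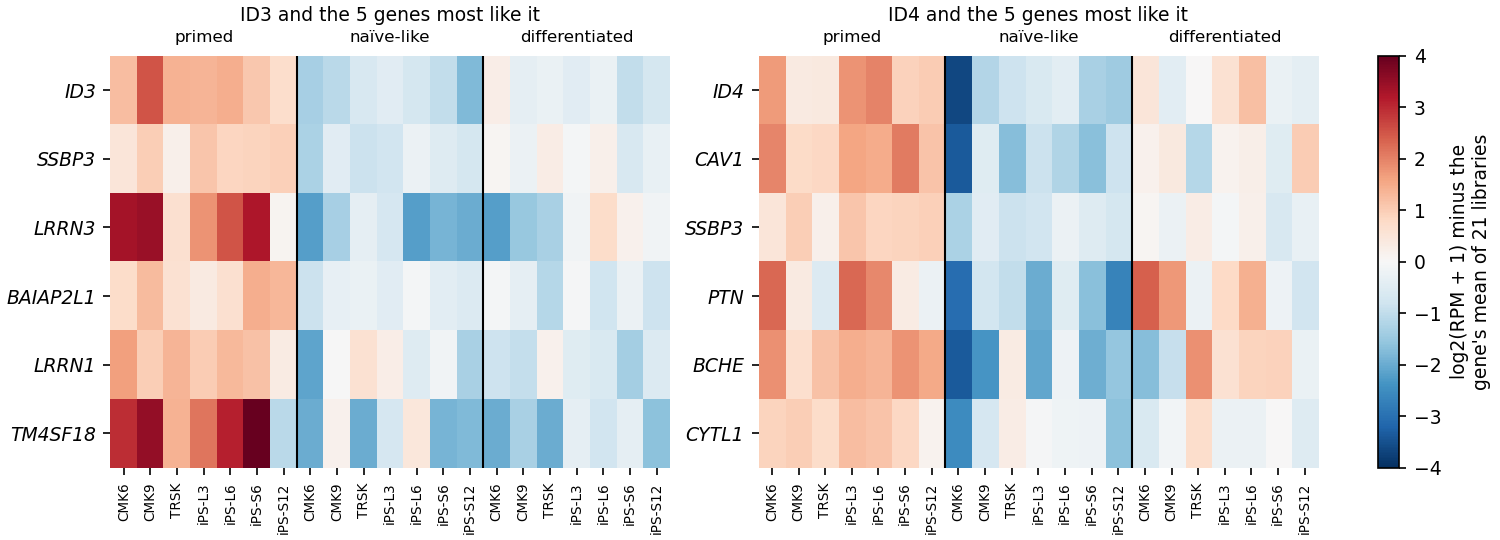
Heat maps of ID3 and ID4 with the 5 genes most like each, as log2(RPM + 1) minus the mean of the gene over 21 PSC libraries (colour, red above and blue below). Columns are lines grouped by medium: primed columns are mostly red and naïve-like columns mostly blue, and naïve-like CMK6 holds the darkest blue cell of the rows ID4 and CAV1.

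For MSX1 the leading genes were LRRC4 (0.70), TUBB2A (0.68, with reads that may be shared with other tubulin genes), ELOVL4 (0.67), ZNF589 (0.64) and CUL1 (0.63), and their r within media was 0.59 to 0.71. ZNF589 exceeded the expression filter in naïve-like CMK6 alone (4.18 on the log2 scale), the library with the highest MSX1. For BMP6 they included TRA2B (0.72), RABL5 (0.72), PSMG1 (0.69) and GSTA4 (0.69), at levels of BMP6 near the limit of detection, where a weak correlation is no finding. With Spearman's rho in place of r, 1 of the 5 genes was shared for ID3, 2 for ID4 and 3 for MSX1. MSX1 had an r of -0.33 with ID3 and -0.11 with ID4.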

How the data were processed

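SC3-seq was applied to 21 PSC libraries and 2 somatic libraries. Per the labels and the study's methods, reads were trimmed with cutadapt 1.3 and processed with TopHat 1.4.1 and Cufflinks 2.2.0 without strand, so reads of antisense genes cannot be told apart. The deposited values are RPM, computed by the authors per library, and the genes analysed here hold 24.8% to 27.5% of a library's total. The last, incomplete line of the table was not used, and 980 genes took their symbol from the annotation.

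Depth was computed from the step between low values: 85.5% to 92.7% of values were whole multiples of it within 0.01, so count tests were not used. Read numbers are therefore approximate, and Poisson intervals cover counting error only. Values were taken as log2(RPM + 1), and 2776 genes above 4 in at least 1 PSC library were tested with limma 3.58.1 in R 4.3.3 (mean-variance trend, two-sided, Benjamini-Hochberg over all tested genes, adjusted p under 0.05). The media comparisons used 1 fit of 3 media, the ESC against iPSC comparison 6 groups, and the response the 7 line differences. The fits were tested on simulated data. Each medium shares its lines with the others by the labels: deviations from the group means had a mean r of 0.27 over 21 pairs of the same line and -0.04 over 126 pairs of different lines. The line as a block was an alternative, beside another pseudocount, filter or scaling, no trend, 2 conditions in a fit and leaving out each line. The 4 genes and the lists were chosen with earlier results of these data known. Named were the members, list genes past the threshold or with the highest level in their list, and the 5 genes with the highest r for each member. Some genes that this rule names are not reported here. No batch is given, and the library numbers run by medium, so batch and medium cannot be told apart. With 1 library for each line and medium, p-values measure the spread between lines, of which 4 came from the same foetus.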

Additional observations from a re-analysis of the deposited data

Results flagged for a closer look

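Among 75 groups examined, 11 had a library or line far from the others, where chance gives about 3.75. Most groups held 7 values, being levels of the members and of some list genes and line differences of the members. Levels of ID3, ID4 and MSX1 in the 4 iPSC lines were also among the 75. All 11 flagged groups held 7 values. The measure is the gap to the nearest value as a share of the whole range. ID3 in primed CMK9 had a share of 0.6002 (9.89 against 8.81 for the next library on the log2 scale), and its naïve-like minus primed difference in CMK9 one of 0.596 (-3.59 against -2.54). ID4 in naïve-like CMK6 had a share of 0.692 (1.91 against 4.15), its naïve-like minus primed difference 0.706 (-5.35 against -2.44) and its differentiated minus naïve-like difference 0.742 (4.14 against 1.63), and these 3 rest on the same library.

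CMK9 in the primed medium also lay apart for SKIL, with a share of 0.574, and for BHLHE40, with 0.785. CMK6 in the naïve-like medium lay apart for FSTL1, with 0.653. CTDSPL in naïve-like iPS-L6 had a share of 0.700, and SMURF1 in differentiated iPS-S6 one of 0.658. LEFTY2 in differentiated CMK9 had a share of 1, since the other 6 libraries were at 0. Its value there was 0.422 RPM from 2 reads, under the limit of detection, so nothing is read from this flag.

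In 5 comparisons between kinds of line, spread over the 3 contrasts of media, the MSX1 differences had opposite signs. Every line of either kind lay on its own side of 0, and none of these differences was tested. ESC lines were split from naïve-like to differentiated cells (CMK6 lower, CMK9 and TRSK higher) and moved the same way as stomach-derived lines from primed to naïve-like cells. From primed to naïve-like cells the mean difference was 2.35 in ESC and -2.45 in liver-derived iPSC lines, 4.80 apart. It was 0.91 in stomach-derived iPSC lines, which placed the liver-derived lines -3.37 from them. From naïve-like to differentiated cells liver-derived lines had 2.18 and stomach-derived lines -0.58, which is 2.76 apart. From primed to differentiated cells ESC lines had 2.95 and liver-derived lines -0.27, 3.22 apart, and liver-derived lines lay -0.61 from the stomach-derived ones (0.33). The differences there were -0.43 in iPS-L3, -0.11 in iPS-L6, 0.50 in iPS-S6 and 0.17 in iPS-S12. In each of these iPSC lines the Poisson intervals of the primed and differentiated values overlapped, so their signs are not set apart from counting error. Liver-derived and stomach-derived iPSCs had 2 lines each.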

How the results depend on the processing

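The media differences of ID3 and ID4 kept their direction under another pseudocount, scaling, the median over lines and each line left out. That of MSX1 between naïve-like and primed cells stayed above 0 but ran from 0.015 (without CMK6) to 1.09 (without iPS-L6) with a line left out. The sign of the BMP6 naïve-like minus primed difference did not.

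BMP pathway calls between naïve-like and primed cells were 0, and 1 (FSTL1) with library centring or with the line as a block, and 0 to 2 with a line left out (2 without CMK9). Between differentiated and naïve-like cells they were 3, and 1 without the filter on low values, and 1 to 4 with a line left out (1 without TRSK or iPS-L6). Between differentiated and primed cells they were 2, and 1 without the filter or with a filter in 7 libraries, 4 with the line as a block, and 1 to 3 with a line left out (1 without CMK6 or TRSK). Over all expressed genes the calls were 534 between naïve-like and primed cells, 330 without the filter and 302 to 527 with a line left out (under 1.5 times fewer except without iPS-L3, iPS-L6 or iPS-S6). They were 392 between differentiated and naïve-like cells and 219 to 342 with a line left out, lowest without CMK6. They were 372 between differentiated and primed cells, 243 without the filter, 585 with the line as a block, and 241 to 392 with a line left out, lowest without iPS-S6. Without the filter 8415 genes were tested. The block ended no call of a named gene.

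The ESC minus iPSC difference of ID3 in naïve-like cells was -0.03, and 0.00595 with library centring, and -0.29 to 0.15 with a line left out. Leaving out a line gave -0.49 to 0.044 for ID4 in differentiated cells and -2.94 to -1.91 for MSX1 in primed cells, with an adjusted p from limma of 0.0156 to 0.248. For the responses it gave -1.09 to 0.97 for ID4 on conversion, and -0.42 to 1.27 for ID4 and -0.68 to 0.35 for MSX1 on withdrawal. The causes were not tested. Depth limits BMP6, with at most 20 reads in a library, and low MSX1 values.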
